A study of Mus musculus with 12 samples.

Results

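Adipokines are the hormones and signalling proteins that fat releases into the blood. RNA of 8 adipokine genes was looked for on mouse gene arrays: Lep, Adipoq, Cfd, Rarres2, Rbp4, Apln, Nampt and Agt. A gene entered where a probe carried its symbol and no other, and the brightest such probe was taken. This gave 6 of the 22180 genes on the arrays that have a probe of their own, each with 1 probe. Rarres2, which encodes chemerin, was found only on a probe shared with a neighbouring gene, and Cfd, which encodes the complement protease adipsin, had no listed probe, so both are not analysed here. Of the 6, Lep, Adipoq, Rbp4, Nampt and Agt passed the filter on dim genes, which asked for a mean log2 level above 5.71 over the 4 arrays of at least 1 tissue. Apln did not pass it, and its values come from a fit of all 22180 genes.

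The arrays came from male Mgl2-DTR mice and from male wild-type C57BL/6N mice matched for age, with the age itself not given. In Mgl2-DTR mice cells that express Mgl2, which encodes the lectin CD301b of some macrophages and dendritic cells, bear the receptor for diphtheria toxin. Both genotypes received the toxin in the peritoneal cavity, 500 ng at each injection and 1 injection every 3 days, and tissue was collected on day 10. The 6 groups were Mgl2-DTR inguinal fat, wild-type inguinal fat, Mgl2-DTR epididymal fat, wild-type epididymal fat, Mgl2-DTR liver and wild-type liver, each with 2 arrays. No group went without toxin, so an effect of the toxin that both genotypes share cannot be seen. Whether an array holds 1 mouse, and whether tissues with the same number share a mouse, is not given, so a p-value here reflects only how these samples vary, which may be technical.

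Leptin and adiponectin are made almost only by adipocytes. Leptin tells the brain how much fat is stored, and adiponectin raises insulin sensitivity in liver and muscle. Retinol-binding protein and angiotensinogen are made by liver and by fat, apelin is a peptide ligand made by many cells including adipocytes, and Nampt is an enzyme of NAD salvage that adipocytes also secrete. White fat of the inguinal depot lies under the skin, while epididymal fat lies in the abdominal cavity and is covered by mesothelium.

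The promoters of 3 genes are shown, those of Lep and Adipoq as the pair of genes furthest above liver in fat, and that of Agt as the gene that differed between the depots. Each is the stretch of 250 bases before the outermost annotated start, from RefSeq on build GRCm38.p6, read 5′ to 3′ on the strand of the gene. Lep lies on the plus strand (chr6:29059971-29060220), Adipoq on the plus strand (chr16:23146286-23146535) and Agt on the minus strand (chr8:124569707-124569956). Capitals mark matches to 1 of 5 motifs searched on both strands, spelled as follows. The TATA box was searched as TATAAA and the CCAAT box by the letters of its name. The GC box was searched as GGGCGG. The palindrome bound by C/EBP factors was searched as TTGCGCAA. The element of nuclear receptors was searched as AGGTCA. These motifs share no letters with each other in the stretches shown.
Lep: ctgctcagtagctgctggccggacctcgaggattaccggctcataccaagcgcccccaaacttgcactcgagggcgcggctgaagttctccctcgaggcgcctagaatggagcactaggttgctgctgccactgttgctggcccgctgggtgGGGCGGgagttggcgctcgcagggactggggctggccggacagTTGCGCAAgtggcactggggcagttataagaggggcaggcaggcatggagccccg
Adipoq: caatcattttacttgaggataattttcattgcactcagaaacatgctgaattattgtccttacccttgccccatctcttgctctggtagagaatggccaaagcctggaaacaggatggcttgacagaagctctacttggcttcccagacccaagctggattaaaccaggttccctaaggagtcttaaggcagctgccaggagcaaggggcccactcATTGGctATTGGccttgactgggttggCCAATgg
Agt: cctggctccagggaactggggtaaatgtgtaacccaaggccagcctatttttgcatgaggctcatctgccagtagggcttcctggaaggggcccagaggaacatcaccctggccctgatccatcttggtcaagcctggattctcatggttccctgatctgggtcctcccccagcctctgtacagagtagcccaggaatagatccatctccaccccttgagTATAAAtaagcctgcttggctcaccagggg
The Lep stretch held a GC box starting 98 bases before the start and the C/EBP palindrome starting 55 bases before it. The palindrome was found in 0.164% of 32851 promoter stretches of the same length, and the GC box in 32.7%. The Adipoq stretch held 3 CCAAT matches, starting 34 and 27 bases before the start on the other strand and 7 bases before it on the strand of the gene, and 33.8% of all stretches held at least 1. The Agt stretch held TATAAA 30 bases before the start, a motif found in 12.4% of all stretches. AGGTCA, found in 14% of all stretches, matched in none of these 3. A match describes the letters only.

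The labels were checked against marker genes. Mgl2 stood at 4.12 and 4.72 in Mgl2-DTR inguinal fat against 7.07 and 7.36 in wild-type inguinal fat, and at 4.25 and 4.19 in Mgl2-DTR epididymal fat against 7.46 and 7.22 in wild-type epididymal fat. In liver Mgl2 lay at 4.03 to 4.59 in Mgl2-DTR and 4.12 to 4.36 in wild-type mice, under the filter level in both. The mean of 6 adipocyte markers was 10.82 to 11.70 in the fat arrays and 6.03 to 6.17 in liver, and the mean of 9 hepatocyte markers was 12.24 to 12.36 in liver. Some fat arrays held other tissue. Skeletal muscle markers (11 genes) averaged 9.64 in Mgl2-DTR inguinal replicate 1 and 10.04 in wild-type inguinal replicate 2, against 6.41 and 6.53 in the other inguinal arrays. Epididymal duct markers (8 genes) averaged 10.81 in Mgl2-DTR epididymal replicate 2 and 3.60 to 4.18 elsewhere, and hepatocyte markers reached 7.09 in wild-type epididymal replicate 2 against 5.67 to 6.69 in the other fat arrays. In these bulk samples fewer cells of a type and less RNA per cell cannot be told apart.

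The main question was whether adipokine RNA in fat differed between mice depleted of CD301b-positive cells and mice that kept them. None of the 5 adipokines tested was called between the genotypes in either depot, in the mean of both depots or in liver. Across all 12710 genes tested, 0.197% were called in inguinal fat, 0.0315% in epididymal fat, 0.323% in the mean of both depots and 0.0708% in liver, so that calls were rare for any gene. Genes called higher in Mgl2-DTR mice made up 0.00787% in inguinal fat and 0.0236% in the mean of both depots, and genes called lower 0.189% and 0.299%. In epididymal fat all 4 genes called were lower, and in liver 0.0315% of genes were called higher and 0.0393% lower. The smallest adjusted p of an adipokine by limma was 0.778 in inguinal fat, 0.841 in epididymal fat, 0.529 in the mean of both depots and 0.981 in liver. At an unadjusted p under 0.05, 0 of the 5 passed in each of these comparisons, against 881, 887, 1283 and 703 of all genes. The number of genes called in epididymal fat rested on single arrays, with 281 after Mgl2-DTR replicate 1 was left out, 0 after Mgl2-DTR replicate 2 was, 776 after wild-type replicate 2 was and 4 with all arrays, but no adipokine was called between the genotypes in any of the 26 alternatives.

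**Figure D1:**
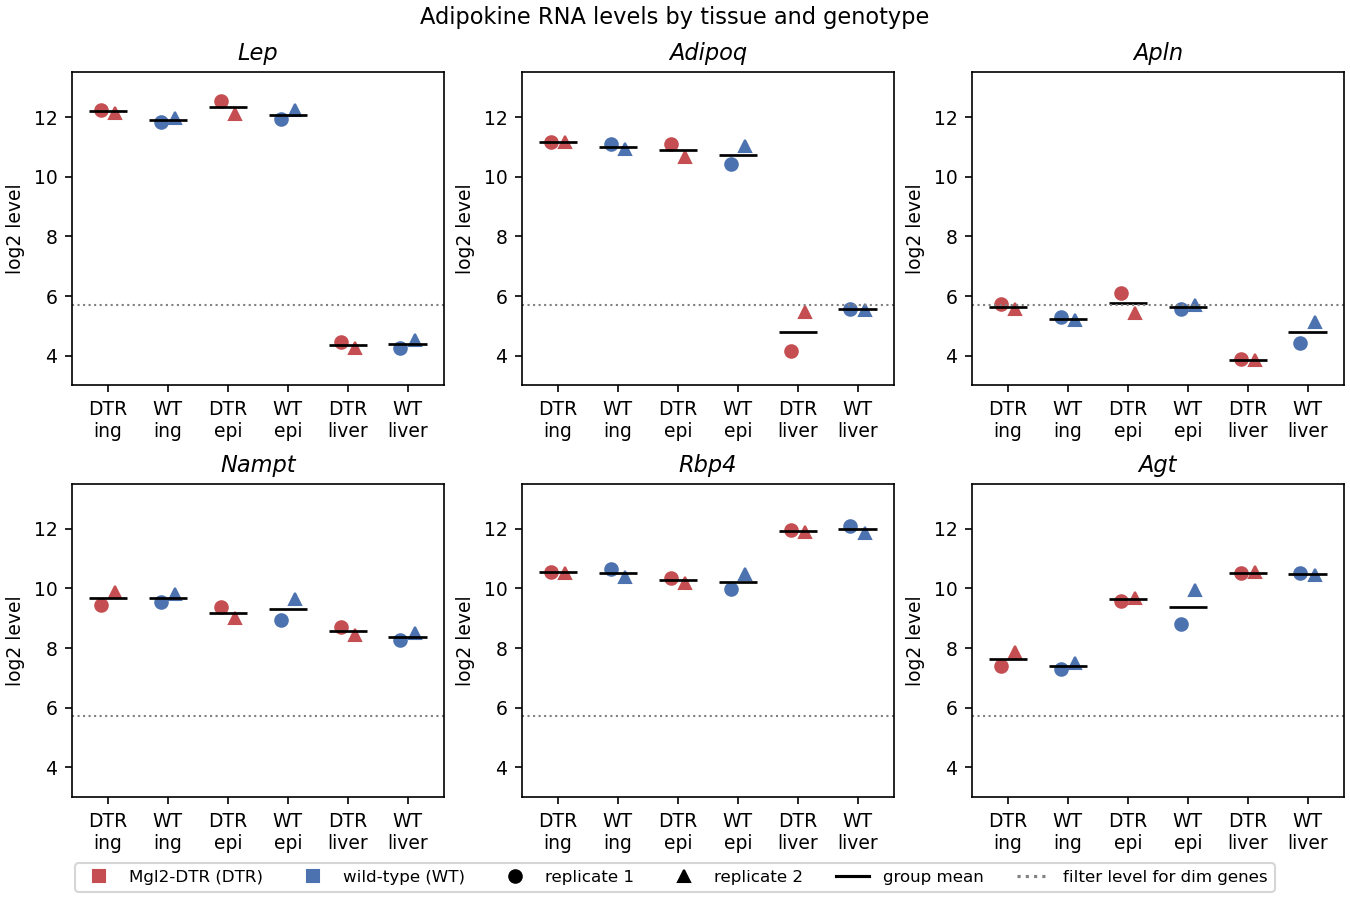
Log2 level of each adipokine on every array, by genotype and tissue, with the bar at the mean of the 2 arrays of a group and the dotted line at the filter level of 5.71. Lep and Adipoq lie at 10.42 or higher in all fat arrays and under the filter level in all liver arrays, and Agt shows a step between the inguinal arrays (7.31 to 7.89) and the epididymal arrays (8.82 to 9.95).

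Lep encodes leptin. It stood at 12.24 and 12.15 in Mgl2-DTR inguinal fat, against 11.82 and 11.98 in wild-type inguinal fat. Both Mgl2-DTR arrays lay above both wild-type arrays, with group means of 12.19 ± 0.069 and 11.90 ± 0.11 (SD, n = 2 each). The difference of 0.29 on the log2 scale (SE 0.19, 95% interval -0.13 to 0.72) was not called (limma adjusted p = 0.778). In epididymal fat Lep stood at 12.53 and 12.11 in Mgl2-DTR mice, against 11.92 and 12.25 in wild-type mice, so that the groups overlapped. That difference was 0.24 (SE 0.19, interval -0.18 to 0.66). Over both depots it was 0.27 (SE 0.13, interval -0.033 to 0.56, adjusted p = 0.529), the smallest unadjusted p of an adipokine in that comparison at 0.0757. The interval leaves room for a rise of up to 0.56, and none of the 26 alternatives run gave a call or a negative value, with differences of 0.15 to 0.37. Many of these alternatives, such as filters and blocks, could not move a difference of group means.

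Adipoq encodes adiponectin. In inguinal fat it stood at 11.18 and 11.16 in Mgl2-DTR mice, against 11.08 and 10.94 in wild-type mice. The groups did not overlap, yet the difference of 0.16 (SE 0.37, interval -0.68 to 0.996) was smaller than its error. The fit shares 1 error over all tissues, and the SE was 0.24 with the 8 fat arrays alone and 0.22 without either Mgl2-DTR liver array. In epididymal fat Adipoq stood at 11.11 and 10.65 in Mgl2-DTR mice, against 10.42 and 11.03 in wild-type mice, and here the groups overlapped (0.15, SE 0.37, interval -0.68 to 0.99). Lep and Adipoq were the only adipokines of the 5 whose genotypes lay apart in inguinal fat, where the groups do not overlap for 46.9% of all genes. In epididymal fat 0 of the 5 lay apart, against 29.5% of all genes.

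Levels of adipocyte RNA moved with these inguinal values. The mean of the 6 adipocyte markers was 11.70 and 11.59 in Mgl2-DTR inguinal fat, against 11.52 and 11.37 in wild-type inguinal fat, so both Mgl2-DTR arrays lay above both wild-type arrays here too. In Mgl2-DTR epididymal fat the same mean was 11.36 and 11.14, against 10.82 and 11.42 in wild-type epididymal fat. With this mean as a covariate, an alternative chosen after seeing the data, the inguinal difference of Lep was 0.16 (SE 0.18) and that of Adipoq was -0.072 (SE 0.37). The 9 macrophage markers averaged 8.12 and 8.69 in Mgl2-DTR inguinal fat against 9.83 and 9.96 in wild-type inguinal fat, and 9.49 and 9.23 in Mgl2-DTR epididymal fat against 10.95 and 10.09 in wild-type epididymal fat. Of these 9, 3 were called lower in inguinal fat, 0 in epididymal fat and 4 over both depots, against 0.189%, 0.0315% and 0.299% of all genes. All 9 lay lower in each depot, called or not, and their part in the adipokine values was not tested.

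Rbp4 encodes the carrier of retinol in blood. It stood at 10.57 and 10.52 in Mgl2-DTR inguinal fat, against 10.65 and 10.38 in wild-type inguinal fat. The Mgl2-DTR values lay inside the wild-type pair. The difference was 0.028 (SE 0.18, interval -0.38 to 0.44), and its sign turned after quantile normalization (-0.013) and after cyclic loess (-0.046). In epididymal fat Rbp4 stood at 10.36 and 10.19 in Mgl2-DTR mice, against 9.99 and 10.47 in wild-type mice, again with overlap (0.045, SE 0.18, interval -0.36 to 0.45).

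Nampt makes the NAD precursor NMN from nicotinamide. It stood at 9.44 and 9.89 in Mgl2-DTR inguinal fat, against 9.54 and 9.81 in wild-type inguinal fat, and the wild-type pair lay inside the Mgl2-DTR pair. The difference was -0.0092 (SE 0.26, interval -0.59 to 0.57). In epididymal fat it stood at 9.37 and 9.02 in Mgl2-DTR mice, against 8.96 and 9.66 in wild-type mice, so that the groups overlapped (-0.11, SE 0.26, interval -0.69 to 0.46).

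Agt encodes angiotensinogen, the precursor that renin cuts to start the angiotensin cascade. In inguinal fat it stood at 7.42 and 7.89 in Mgl2-DTR mice, against 7.31 and 7.49 in wild-type mice. The groups overlapped, and the difference was 0.25 (SE 0.31, interval -0.44 to 0.94). In epididymal fat Agt stood at 9.60 and 9.69 in Mgl2-DTR mice, against 8.82 and 9.95 in wild-type mice. The wild-type arrays lay on either side of the Mgl2-DTR pair, and the difference was 0.26 (SE 0.31, interval -0.43 to 0.94).

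Apln encodes apelin, a peptide that acts on the receptor Aplnr in vessels and heart. It stood at 5.72 and 5.56 in Mgl2-DTR inguinal fat, against 5.28 and 5.19 in wild-type inguinal fat, so that the groups lay apart at levels around the filter level. In the fit of all 22180 genes that difference was 0.40 (SE 0.25, interval -0.16 to 0.96, adjusted p = 0.745), with 0.117% of genes called. In epididymal fat Apln stood at 6.08 and 5.42 in Mgl2-DTR mice, against 5.56 and 5.69 in wild-type mice, with overlap (0.13, SE 0.25, adjusted p = 0.979).

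**Figure D2:**
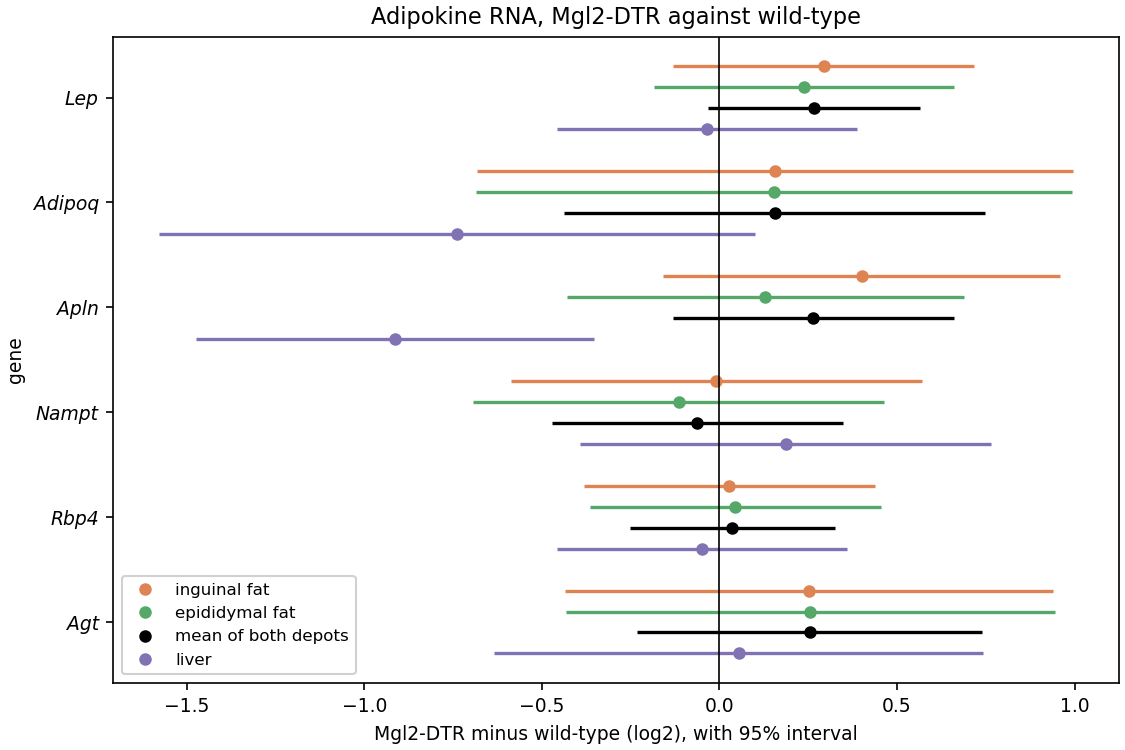
Difference in log2 level, Mgl2-DTR minus wild-type, for each adipokine in inguinal fat, epididymal fat, both depots averaged and liver, with 95% intervals from limma. Every interval in fat crosses 0, with Lep over both depots reaching from -0.033 to 0.56. Apln comes from the fit of all genes.

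The genotype difference was also compared between the depots, as the inguinal minus the epididymal difference. It ran from -0.017 for Rbp4 to 0.11 for Nampt (SE 0.36), and 0 of the 5 adipokines were called. No gene of the 12710 was called there (0%), although 364 had an unadjusted p under 0.05 by limma. For Lep the value was 0.055 (SE 0.27, interval -0.54 to 0.65) and for Adipoq 0.0027 (SE 0.53, interval -1.18 to 1.19). The Adipoq SE there was 0.34 with the 8 fat arrays alone and 0.32 without either Mgl2-DTR liver array. The median genotype difference of the 5 adipokines was 0.16 in inguinal fat against 0.10 over all genes tested, and 0.15 in epididymal fat against 0.0049. The signs of most of these values rested on single arrays. In epididymal fat, leaving out wild-type replicate 1 turned Adipoq to -0.15, Rbp4 to -0.20 and Agt to -0.31. Leaving out Mgl2-DTR replicate 1 turned Adipoq to -0.076 and Rbp4 to -0.042, and Nampt turned to 0.061 without Mgl2-DTR replicate 2 and to 0.24 without wild-type replicate 2. In inguinal fat Rbp4 turned to -0.11 without wild-type replicate 2, and Nampt turned to 0.21 without Mgl2-DTR replicate 1 and to 0.13 without wild-type replicate 2. Lep kept its sign in both depots in all 26 alternatives, at 0.16 to 0.37 in inguinal fat and 0.032 to 0.44 in epididymal fat. Many of these settings, such as filters, weights and blocks, could not move a difference of group means.

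The second question was how the depots differ. Agt was the only adipokine of the 5 called, and it was called in both genotypes. In Mgl2-DTR mice it stood at 7.42 and 7.89 in inguinal fat, against 9.60 and 9.69 in epididymal fat. In wild-type mice it stood at 7.31 and 7.49 in inguinal fat, against 8.82 and 9.95 in epididymal fat. Every inguinal array thus lay under every epididymal array, and the lowest epididymal value was that of wild-type replicate 1.

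Agt fell by 1.99 in inguinal fat against epididymal fat of Mgl2-DTR mice (SE 0.31, interval -2.68 to -1.30, limma adjusted p = 0.0135), which is 3.97-fold. In wild-type mice it also fell by 1.99 (SE 0.31, interval -2.68 to -1.30, adjusted p = 0.0135). Across all genes 1.96% were called between the depots in Mgl2-DTR mice and 1.49% in wild-type mice, with 0.897% higher and 1.06% lower in inguinal fat of Mgl2-DTR mice, and 0.834% higher and 0.661% lower in that of wild-type mice. The direction held in all 26 alternatives, at -2.48 to -1.76 in Mgl2-DTR mice and -2.55 to -1.43 in wild-type mice. Filters, probe choices, weights, blocks, the fat arrays alone and left-out arrays of other groups left the value unchanged. Those settings could not turn its direction. The call did not hold in all 26 alternatives. It was lost with the 8 fat arrays alone, at an adjusted p of 0.0773 in Mgl2-DTR and 0.0757 in wild-type mice. It was lost without the 2 muscle-bearing inguinal arrays, at -1.76 (adjusted p = 0.180) in Mgl2-DTR and -2.08 (adjusted p = 0.112) in wild-type mice. In Mgl2-DTR mice it was also lost without epididymal replicate 2 (-1.94, adjusted p = 0.0884), inguinal replicate 1 (-1.76, adjusted p = 0.110) or inguinal replicate 2 (-2.22, adjusted p = 0.0504). In wild-type mice it was lost without inguinal replicate 1 (-1.89, adjusted p = 0.113) or inguinal replicate 2 (-2.08, adjusted p = 0.0724).

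Mesothelial RNA, like Agt, was lower in inguinal than in epididymal fat. The mean of 6 mesothelium markers was 5.43 and 5.35 in Mgl2-DTR inguinal fat, against 8.09 and 8.35 in Mgl2-DTR epididymal fat. In wild-type inguinal fat this mean was 5.20 and 5.08, against 7.53 and 8.44 in wild-type epididymal fat. Of the 6, 5 fell in inguinal fat in each genotype, against 1.06% of all genes called lower in Mgl2-DTR and 0.661% in wild-type mice. Of the same 6, 1 or 2 lay over the filter level in an inguinal array against 5 or 6 in an epididymal array. Among the epididymal arrays the lowest mesothelium mean and the lowest Agt were both in wild-type replicate 1, and the highest of both were in wild-type replicate 2. Upk3b, a membrane protein of mesothelial cells, stood at 9.45 and 10.52 in wild-type epididymal replicates 1 and 2. Hepatocyte markers ran high on that last array too, with a mean of 7.09 in wild-type epididymal replicate 2 against 5.72 in wild-type replicate 1, and 5.85 and 5.67 in the Mgl2-DTR epididymal arrays. The part of mesothelial and hepatocyte RNA in the Agt values was not tested.

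The other 4 adipokines tested were not called between the depots. Nampt was at 9.44 and 9.89 in inguinal fat against 9.37 and 9.02 in epididymal fat of Mgl2-DTR mice, with the groups apart and a difference of 0.47 (SE 0.26, interval -0.11 to 1.05, adjusted p = 0.370). In wild-type mice the Nampt groups overlapped, at 0.37 (SE 0.26, interval -0.21 to 0.94). Rbp4 differed by 0.27 in Mgl2-DTR mice (SE 0.18, adjusted p = 0.470), where the groups lay apart, and by 0.29 in wild-type mice (SE 0.18, adjusted p = 0.494), where they overlapped.

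Adipoq differed by 0.29 in each genotype (SE 0.37), with the groups apart in Mgl2-DTR mice and overlapping in wild-type mice. Without Mgl2-DTR epididymal replicate 2 it stood at 0.058 in Mgl2-DTR mice. Without wild-type epididymal replicate 1, the wild-type values were -0.023 for Adipoq, 0.043 for Rbp4 and 0.014 for Nampt. Lep differed by -0.13 in Mgl2-DTR mice (interval -0.55 to 0.30) and by -0.18 in wild-type mice (interval -0.60 to 0.24), with overlap in both. Lep stood at 0.080 in Mgl2-DTR mice without epididymal replicate 1 and at -0.018 in wild-type mice without epididymal replicate 2. Apln differed by -0.12 and -0.39 in Mgl2-DTR and wild-type mice (SE 0.25 each) in the fit of all genes. In Mgl2-DTR mice 4 of the 5 adipokines lay apart between the depots, against 52.8% of all genes, and in wild-type mice 1 of the 5 did, against 46.7%. With the adipocyte marker mean as a covariate Adipoq stood at -0.16 and -0.083 in Mgl2-DTR and wild-type mice, and Agt at -2.48 and -2.39. The same covariate gave Nampt at 0.091 and 0.054, Rbp4 at -0.027 and 0.043, and Lep at -0.39 and -0.40 in Mgl2-DTR and wild-type mice.

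**Figure D3:**
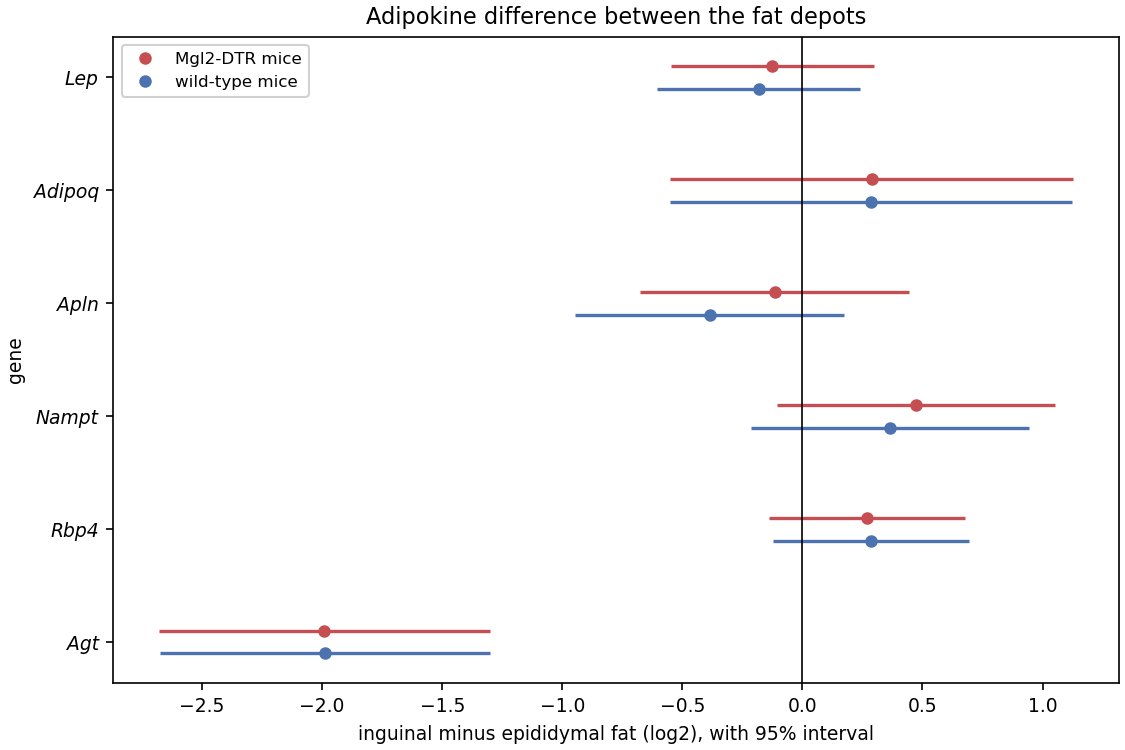
Difference in log2 level, inguinal minus epididymal fat, for each adipokine in Mgl2-DTR mice and in wild-type mice, with 95% intervals from limma. Agt lies at -1.99 in both genotypes, with intervals clear of 0, and all other intervals cross 0. Apln comes from the fit of all genes.

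Liver served as the outside tissue. All 5 adipokines tested differed between fat and liver, where 68.4% of all genes were called, 41.8% higher and 26.6% lower in fat, so that a call there is common to most genes. Lep, Adipoq and Nampt were higher in fat, and Rbp4 and Agt were lower. The groups lay apart for all 5, against 48.6% of all genes, and each was called in all 24 alternatives run for this comparison.

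Lep was at 11.82 to 12.53 in the 8 fat arrays, with a mean of 12.05 in inguinal and 12.20 in epididymal fat, against 4.47 and 4.24 in Mgl2-DTR liver and 4.25 and 4.53 in wild-type liver. The fat mean exceeded the liver mean by 7.75 (SE 0.12, adjusted p = 3.42e-11). Adipoq was at 10.42 to 11.18 in fat, against 4.14 and 5.47 in Mgl2-DTR liver and 5.56 and 5.54 in wild-type liver, a difference of 5.77 (SE 0.23, adjusted p = 1.63e-08). Liver levels of both genes lay under the filter level, so these differences are limited by the floor of the array and are not exact sizes. Apln, at 5.19 to 6.08 in fat against 3.84 to 5.12 in liver, was under the filter level in liver too (1.24, SE 0.15, adjusted p = 9.49e-05 in the fit of all genes, of which 49.8% were called).

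Nampt was at 8.96 to 9.89 in fat, against 8.70 and 8.45 in Mgl2-DTR liver and 8.26 and 8.52 in wild-type liver. It was 1.97-fold higher in fat (0.98 on the log2 scale, SE 0.16, adjusted p = 4.00e-04), and the lowest fat array lay above the highest liver array. Rbp4 was at 9.99 to 10.65 in fat, against 11.96 and 11.90 in Mgl2-DTR liver and 12.10 and 11.86 in wild-type liver, and fell by 1.56 in fat (SE 0.11, adjusted p = 1.24e-06), which is 2.95-fold. Agt was at 7.31 to 9.95 in fat, against 10.51 and 10.55 in Mgl2-DTR liver and 10.51 and 10.44 in wild-type liver, and fell by 1.98 (SE 0.19, adjusted p = 9.86e-06). The epididymal arrays stood closer to liver than the inguinal arrays did, with a mean of 7.53 in inguinal fat, 9.51 in epididymal fat and 10.50 in liver.

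Within liver 0 of the 5 adipokines were called between the genotypes. Rbp4 differed by -0.049 (SE 0.18, interval -0.46 to 0.36), Agt by 0.054 (SE 0.31, interval -0.63 to 0.74) and Nampt by 0.19 (SE 0.26, interval -0.39 to 0.76). Adipoq differed by -0.74 (SE 0.37, interval -1.58 to 0.099, adjusted p = 0.981) and was the only 1 of the 5 whose liver groups lay apart, against 34.4% of all genes. It stood at 4.14 and 5.47 in Mgl2-DTR liver, against 5.56 and 5.54 in wild-type liver, all 4 under the filter level. Without Mgl2-DTR liver replicate 1 the difference was -0.075, and without replicate 2 it was -1.40. Apln, in liver at 3.89 and 3.84 in Mgl2-DTR mice against 4.43 and 5.12 in wild-type mice, differed by -0.91 (SE 0.25, unadjusted p = 0.00472, adjusted p = 0.546), at levels under the filter level on all 4 arrays.

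The group means were also put in order. For Lep the 4 fat groups ran Mgl2-DTR epididymal (12.32), Mgl2-DTR inguinal (12.19), wild-type epididymal (12.08) and wild-type inguinal (11.90), and each neighbour in that order overlapped the next. For Nampt the 4 fat groups also overlapped from each neighbour to the next. For Rbp4 both liver groups came first (11.93 in Mgl2-DTR and 11.98 in wild-type liver), then inguinal fat, then epididymal fat. For Agt the order was liver, epididymal fat, inguinal fat, with the genotypes of a tissue overlapping and the tissues apart. For Adipoq the order was Mgl2-DTR inguinal (11.17), wild-type inguinal (11.01), Mgl2-DTR epididymal (10.88) and wild-type epididymal fat (10.73), and Mgl2-DTR inguinal fat overlapped none of the other 3. For Apln it was Mgl2-DTR epididymal (5.75), Mgl2-DTR inguinal (5.64), wild-type epididymal (5.62) and wild-type inguinal fat (5.24), and wild-type inguinal fat overlapped none of the other 3.

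Over the 8 fat arrays Agt had the widest span of the 5, at 2.64 on the log2 scale, wider than that of 97% of genes tested. Nampt spanned 0.93, Adipoq 0.76, Lep 0.70 and Rbp4 0.66, against a median of 0.63 over all genes. As a description over these 8 arrays, which hold both depots and both genotypes, Adipoq and Rbp4 ran together (Pearson's r = 0.922), as did Adipoq and Nampt (r = 0.764) and Rbp4 and Nampt (r = 0.741). Lep ran with neither Rbp4 (r = 0.0896) nor Nampt (r = 0.055), and Agt ran against Rbp4 (r = -0.505). These values mix the depots and need not hold within a depot. Within epididymal fat Lep, Agt, Rbp4 and Nampt were all lowest in wild-type replicate 1 (11.92, 8.82, 9.99 and 8.96). Agt and Rbp4 were both highest there in wild-type replicate 2 (9.95 and 10.47).

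Adipoq and Rbp4 were each lowest in wild-type epididymal replicate 1 and next lowest in Mgl2-DTR epididymal replicate 2. These 2 arrays also had the lowest means of adipocyte markers, at 10.82 in wild-type epididymal replicate 1 and 11.14 in Mgl2-DTR epididymal replicate 2. The first had the highest macrophage mean (10.95) and the second the epididymal duct markers. The part of these in the adipokine levels was not tested.

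**Figure D4:**
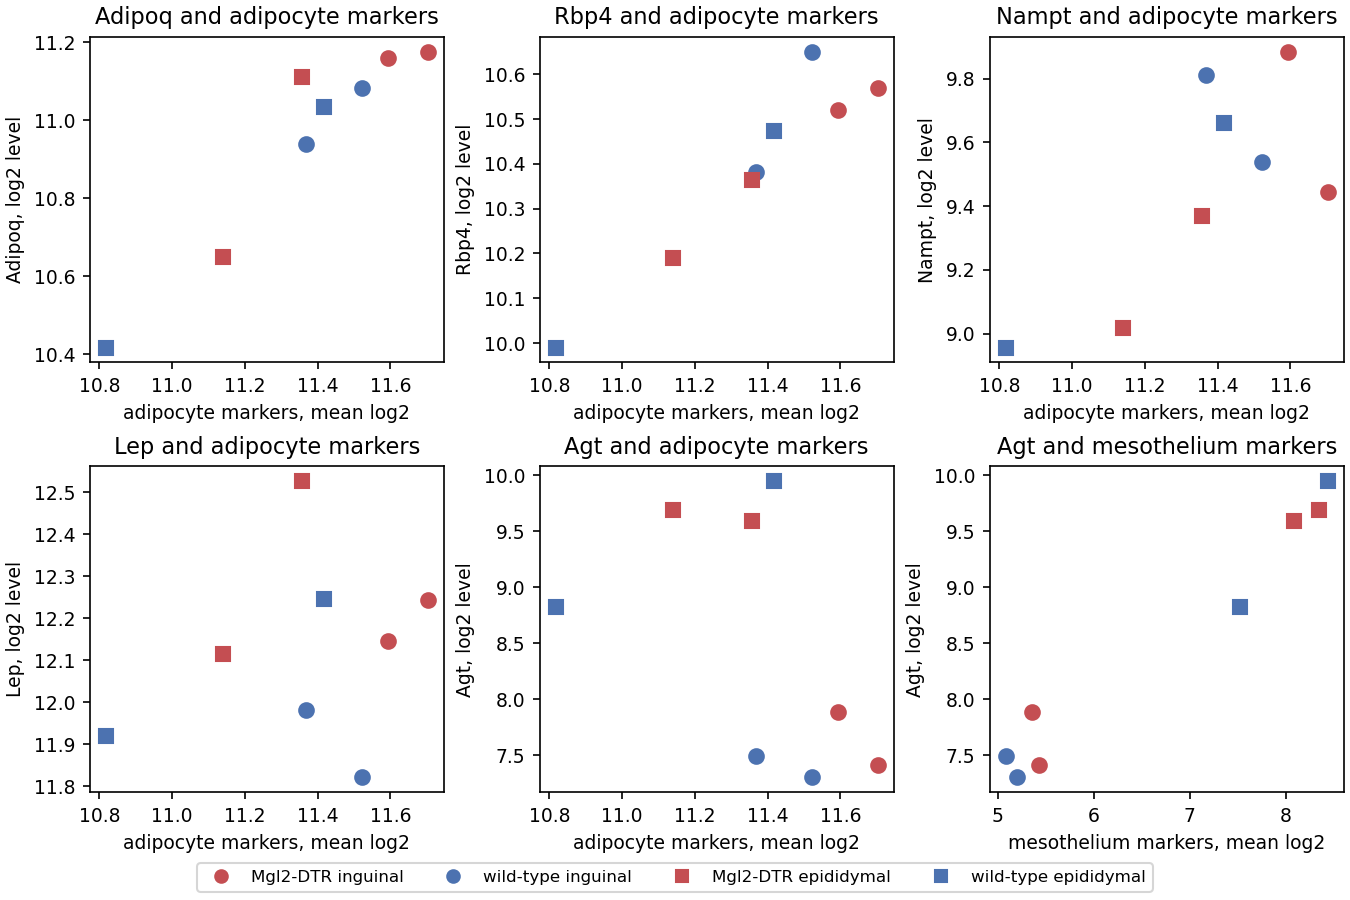
Log2 level of 5 adipokines against the mean log2 level of adipocyte markers on the 8 fat arrays, and of Agt against mesothelium markers in the last panel, with circles for inguinal and squares for epididymal arrays. Adipoq and Rbp4 climb with the adipocyte mean from wild-type epididymal replicate 1 at 10.82, and Agt forms 1 inguinal and 1 epididymal cloud. Lep shows no such line over both depots together, though its lowest epididymal value is also on wild-type epididymal replicate 1.

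The genes most like each adipokine over the 8 fat arrays were found by Pearson's r among the genes tested, as a description. For Lep they were Kpna4 (r = 0.978), Cacna1c (r = 0.973) and Fggy (r = 0.963). For Adipoq they were Sh3glb1 (r = 0.986), Arhgap26 (r = 0.984) and Arhgap24 (r = 0.982), and for Rbp4 Lrig1 (r = 0.980), Pon3 (r = 0.978) and Dapk1 (r = 0.973). Nampt was most like Abhd14a (r = 0.977), Apoc3 and Abhd5 (r = 0.971 each), of which Abhd5 encodes an activator of the lipase Atgl. Agt was most like Rspo1, a secreted Wnt enhancer (r = 0.992), Cd2ap (r = 0.988) and Bmp4, a secreted growth factor (r = 0.987).

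Genes that act with the adipokines were followed as 11 lists, with 94 of 127 listed genes tested beside the adipokines. None was called between the genotypes in inguinal fat, epididymal fat, the mean of both depots or liver by limma (0% in each), while 10, 10, 19 and 5 had an unadjusted p under 0.05, against 881, 887, 1283 and 703 of all genes. Between the depots 4 of the 94 were called in each genotype (4.26%), 2 higher and 2 lower in Mgl2-DTR inguinal fat and 3 higher and 1 lower in wild-type inguinal fat, against 1.96% and 1.49% of all genes in Mgl2-DTR and wild-type mice. Of those lower in Mgl2-DTR mice, Rdh16 was under the filter level in fat. Between fat and liver 42 were higher and 35 lower (81.9%, against 68.4% of all genes).

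Leptin acts through the receptor Lepr, the kinase Jak2 and Stat3. Of 7 tested genes of leptin signalling none passed in fat. Irs2, an adaptor of insulin and leptin receptors, had the smallest p of the list. It stood at 9.21 and 9.59 in Mgl2-DTR inguinal fat, against 8.11 and 8.22 in wild-type inguinal fat. Both Mgl2-DTR arrays lay above both wild-type arrays, yet the difference of 1.23 (SE 0.27) had an adjusted p of 0.236. Over both depots Irs2 differed by 0.92 (SE 0.19, adjusted p = 0.137). The list's median was 0.30 in inguinal fat against 0.10 over all genes.

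Adiponectin is assembled in the endoplasmic reticulum before its release, where Erp44 retains it and Gstk1 helps it form multimers. Of 6 tested genes of that list none passed between genotypes, and Gstk1 rose between the depots of wild-type mice. It stood at 10.57 and 10.55 in wild-type inguinal fat, against 8.82 and 9.77 in wild-type epididymal fat (1.27, SE 0.25, adjusted p = 0.0466). In Mgl2-DTR mice it stood at 10.49 and 10.67 in inguinal fat, against 9.65 and 9.77 in epididymal fat, and was not called (0.87, adjusted p = 0.134). The wild-type call held in 10 of 26 alternatives, at 0.79 to 1.74 with adjusted p of up to 0.273, and leaving out any single array but wild-type epididymal replicate 2 ended it.

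Retinol travels on Rbp4 together with Ttr, enters cells through Stra6 or its liver relative Stra6l, and is turned into retinoic acid by the Aldh1a enzymes. Of 14 tested genes of the list none passed between genotypes. Between the depots Aldh1a2, a retinoic acid synthase known from mesothelium, stood at 5.34 and 5.33 in inguinal fat against 7.49 and 7.40 in epididymal fat of Mgl2-DTR mice, and fell by 2.11 (SE 0.24, adjusted p = 0.00334). In wild-type mice it stood at 5.71 and 6.47 in inguinal fat, against 8.06 and 7.81 in epididymal fat, and fell by 1.85 (SE 0.24, adjusted p = 0.00569). Aldh1a2 was called in all 26 alternatives in each genotype, and its Mgl2-DTR inguinal level was under the filter level, so the size there is limited by the floor of the array.

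Rdh16, a retinol dehydrogenase of liver, passed the filter only through liver. All 8 fat arrays lay under the filter level at 3.77 to 5.47, so its value between the depots of Mgl2-DTR mice (-1.19, SE 0.22, adjusted p = 0.0324), though counted as a call, is not read as a difference. That call held in 17 of 25 alternatives and was lost, at an adjusted p of up to 0.193, among other settings without Mgl2-DTR epididymal replicate 2, either Mgl2-DTR inguinal array or either wild-type liver array. In liver Rdh16 stood at 9.59 and 9.22 in Mgl2-DTR mice, against 8.15 and 8.0 in wild-type mice (1.33, SE 0.22, adjusted p = 0.111). Against liver, Ttr fell by 6.98 in fat (SE 0.19, adjusted p = 1.15e-09) and Stra6l fell by 4.50 (SE 0.18), to fat levels of 5.43 to 6.40 for Ttr and 5.39 to 7.01 for Stra6l that lie around the filter level and limit these sizes. Of the 14, 10 were called lower and 2 higher in fat, against 26.6% of all genes called lower and 41.8% higher.

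Angiotensinogen is cut by renin to angiotensin I, which Ace or the mast cell protease Cma1 turns into angiotensin II, the ligand of Agtr1a. Of 8 tested genes, Agt included, none passed between genotypes. Cma1 stood at 6.54 and 7.07 in inguinal fat against 5.56 and 5.74 in epididymal fat of Mgl2-DTR mice, and rose by 1.15 (SE 0.23, adjusted p = 0.0389). In wild-type mice it stood at 7.69 and 7.59 in inguinal fat, against 5.95 and 6.59 in epididymal fat, and rose by 1.37 (SE 0.23, adjusted p = 0.0203), so that Agt and Cma1 moved in opposite directions. The Cma1 call held in 11 of 25 alternatives in Mgl2-DTR mice and 18 of 25 in wild-type mice, with adjusted p of up to 0.271 and 0.145. Leaving out any single array but the wild-type epididymal arrays ended it in Mgl2-DTR mice, and leaving out wild-type epididymal replicate 1 or either wild-type inguinal array ended it in wild-type mice.

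Ace stood at 9.93 and 11.50 in Mgl2-DTR epididymal fat, against 9.21 and 10.05 in wild-type epididymal fat, and was not called (1.09, SE 0.43, adjusted p = 0.710). The highest value was on the array with epididymal duct markers, whose part was not tested. Ace rose by 4.77 in fat (SE 0.26, adjusted p = 1.89e-07) against liver, where its levels of 5.45 to 5.80 around the filter level limit that size, while Agtr1a fell by 1.99 (SE 0.12). Agtr1a was at 7.47 to 8.05 in the fat arrays, against 9.80 and 9.96 in Mgl2-DTR liver and 9.77 and 9.51 in wild-type liver.

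Apelin is degraded in part by the membrane protease Mme. Mme stood at 10.68 and 10.37 in inguinal fat against 9.28 and 9.38 in epididymal fat of Mgl2-DTR mice, and rose by 1.20 (SE 0.25, adjusted p = 0.0473). In wild-type mice it stood at 10.76 and 10.61 in inguinal fat, against 8.47 and 9.31 in epididymal fat, and rose by 1.79 (SE 0.25, adjusted p = 0.00801). Every inguinal array lay above every epididymal array. The Mgl2-DTR call held in 9 of 26 alternatives (adjusted p of up to 0.381), and any single array left out but the wild-type epididymal arrays ended it. The wild-type call held in 23 of 26 and was lost without either wild-type inguinal array (adjusted p of up to 0.091). Aplnr, the apelin receptor of endothelium, rose by 2.33 in fat against liver (SE 0.35, adjusted p = 0.000228) and was not called between genotypes. Its liver arrays lay at 4.64 to 5.47, under the filter level, so that size is limited by the floor of the array.

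Of 12 tested genes of NAD salvage, Nampt included, none passed between genotypes or depots. Between fat and liver 2 rose and 7 fell, against 41.8% of all genes called higher in fat and 26.6% lower. Nampt lay higher in fat, while Naprt, which starts from nicotinic acid, stood at -2.91 (SE 0.091). Qprt, which starts from a tryptophan product, stood at -3.18 (SE 0.13), a size limited by fat levels of 5.41 to 5.91 around the filter level. Sirt3 of the same list stood at -1.81 (SE 0.080). Naprt stood at 6.31 to 7.06 in fat, against 9.61 and 9.58 in Mgl2-DTR liver and 9.28 and 9.50 in wild-type liver.

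Cfd and Rarres2 had no usable probe, but partners of both proteins were measured. Of 8 tested genes of the alternative complement pathway, in which adipsin cuts factor B, none passed between genotypes. Cfi, a protease that inactivates C3b, had the smallest p of the list in epididymal fat, at 5.97 and 6.14 in Mgl2-DTR mice against 4.34 and 5.30 in wild-type mice (1.23, SE 0.29, adjusted p = 0.522). The wild-type arrays were under the filter level, as were all 4 inguinal arrays, and over both depots the difference was 0.70 (SE 0.20, adjusted p = 0.341). Cfp, the stabilizing factor properdin of myeloid cells, stood at 7.74 and 8.63 in Mgl2-DTR inguinal fat, against 9.32 and 9.67 in wild-type inguinal fat, and at 8.71 and 8.51 in Mgl2-DTR epididymal fat, against 9.85 and 9.27 in wild-type epididymal fat. The groups lay apart in both depots, and over both the difference was -1.13 (SE 0.20, adjusted p = 0.0715), called in 4 of 26 alternatives. The macrophage markers given above lay lower in the same arrays, and their part was not tested.

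Chemerin acts on Cmklr1, found on macrophages and adipocytes. Cmklr1 stood at 8.95 and 9.09 in Mgl2-DTR inguinal fat, against 8.46 and 8.81 in wild-type inguinal fat, with the groups apart and a difference of 0.39 (SE 0.21, adjusted p = 0.764). Against liver Cmklr1 rose by 3.0 in fat (SE 0.13, adjusted p = 2.81e-08), a size limited by liver levels of 5.39 to 5.70 under the filter level, while Plg, the precursor of the protease plasmin, fell by 7.60 to a fat level of 4.06 to 5.17, under the filter level.

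Among 17 tested secreted factors of fat beyond the 8 adipokines none passed between genotypes or depots. Sfrp5, a secreted Wnt inhibitor, stood at 8.23 and 8.0 in Mgl2-DTR inguinal fat, against 6.86 and 6.86 in wild-type inguinal fat (1.26, SE 0.28, adjusted p = 0.236). The groups lay apart, as they did for 46.9% of all genes in inguinal fat. Over both depots the Sfrp5 difference was 0.96 (SE 0.20, adjusted p = 0.128), with 1 call in 26 alternatives. Igf1, a growth factor, lay lower in Mgl2-DTR arrays of both depots and of liver, without a call. It stood at 10.20 and 10.09 in Mgl2-DTR inguinal fat against 10.67 and 10.61 in wild-type inguinal fat. Over both depots the Igf1 difference was -0.50 (SE 0.14, adjusted p = 0.313). In liver Igf1 stood at 10.94 and 10.77 in Mgl2-DTR mice against 11.36 and 11.21 in wild-type mice (-0.43, SE 0.20, adjusted p = 0.908). Apoe, a lipid carrier, stood at 7.85 and 7.79 in Mgl2-DTR epididymal fat, against 8.60 and 8.14 in wild-type epididymal fat (-0.55, SE 0.16, adjusted p = 0.688). Lcn2, an iron-scavenging protein of inflamed tissue, stood at 7.62 and 9.77 in Mgl2-DTR inguinal fat, against 6.25 and 7.04 in wild-type inguinal fat (2.05, SE 0.81, adjusted p = 0.683). It also lay higher in Mgl2-DTR epididymal fat, at 9.74 and 11.40 against 9.52 or lower in wild-type mice. In liver Lcn2 stood at 10.11 and 11.85 in Mgl2-DTR mice, against 9.70 and 9.38 in wild-type mice. The spread between the Mgl2-DTR arrays was wide, and replicate 2 was the higher in each tissue. Retn, which encodes resistin, was at 13.28 to 13.51 in all 8 fat arrays, against 6.91 and 6.24 in Mgl2-DTR liver and 6.11 and 6.58 in wild-type liver (6.96, SE 0.14). Of 16 tested genes of adipocyte identity, 0 passed between genotypes or depots. Against liver 15 were higher and 1 lower in fat, where 41.8% of all genes were called higher and 26.6% lower. The median genotype difference of the 16 in inguinal fat was 0.20 against 0.10 over all genes tested, with Cebpa, a driver of adipocyte differentiation, at 0.36 (SE 0.22, adjusted p = 0.775).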

How the data were processed

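RNA of 12 samples was measured on Affymetrix gene arrays prepared with the GeneChip WT PLUS kit, per the labels' protocols. The deposited values are on the log2 scale, already normalized by the authors, with array medians of 5.19 to 5.28. Of tools, only limma appears in the submitters' processing notes. How background was corrected, arrays normalized and probes summarized was not given in the sources used here. Of 41345 probes, 23521 carried 1 gene symbol, 1814 several and 16010 none in the platform annotation. The brightest single-symbol probe stood for each of 22180 genes (1082 had more than 1). Genes with a mean above 5.71 over the 4 arrays of at least 1 tissue were tested (12710). This level is the median of all values of single-symbol probes.

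The 6 group means were fitted to all 12 arrays with limma 3.58.1 in R 4.3.3 (6 residual degrees of freedom), with Benjamini-Hochberg adjustment over all genes tested and calls at an adjusted p under 0.05. Fat against liver is the mean of the 4 fat groups minus that of the 2 liver groups. The fit was tested on simulated data with known answers. A change of 1 log2 unit was called in 66% of changed genes for inguinal, 57% for epididymal and 61% for wild-type depot differences. For 2 log2 units it was 95%, 92% and 92%. False calls were 3 of 164, 19 of 168 and 10 of 163 calls. Noise was drawn there for each gene on its own, with 100 genes changed by each size. The real arrays also hold other tissue that moves many genes together. Between genotypes only 25 genes were called in inguinal and 4 in epididymal fat, which makes the adjustment stricter. The shares found in the simulation can therefore be too high for these arrays. With 2 arrays per group, their number limits the precision. The adipokines and lists were chosen with earlier results of these data known. Genes named were drawn from the adipokines and, from the lists, per comparison, up to 3 genes called or, where none was, up to 2 with the smallest p, and for each adipokine the 3 genes most correlated with it over the fat arrays. Not every list gene that this rule gave is printed. Values of genes named by this rule in 1 comparison are also given for others. Alternatives covered filters, probes, normalization, weights, blocks and left-out arrays.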

Additional observations from a re-analysis of the deposited data

Results flagged for a closer look

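In 2 genes the genotypes lay apart in opposite directions in inguinal fat and in liver. Of all genes tested, the genotypes lay apart for 46.9% in inguinal fat and 34.4% in liver, in either direction. The share of genes apart in opposite directions was not counted, so these 2 are not read as unusual. Adipoq differed between Mgl2-DTR and wild-type mice by 0.16 in inguinal fat and by -0.74 in liver, and Apln by 0.40 in inguinal fat and by -0.91 in liver. The Adipoq liver value rested on Mgl2-DTR liver replicate 1, without which it was -0.075. The difference between the tissues was not tested. All 4 liver arrays lay under the filter level of 5.71 for both genes, and none of the 4 values passed adjustment by limma.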

How the results depend on the processing

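No value of an adipokine that was called changed its sign, while values not called often did with 1 array left out, and none of the 5 was called between genotypes in any alternative. The Agt depot calls, 1 adipokine in each genotype, went to 0 with the 8 fat arrays alone and without the 2 muscle-bearing inguinal arrays, and to between 0 and 1 with 1 array left out. Counts of all genes moved more. In epididymal fat 4 genes became 1 with no filter, 0 with a filter at the 75th percentile (484 at an unadjusted p under 0.05), 1 after quantile normalization, 2 after cyclic loess, 1 with array weights, 1 with the fat arrays alone, 1 without the muscle-bearing arrays and 17 without the 2 epididymal arrays that stood apart. In inguinal fat 25 became 55 with array weights, 9 with fat alone, 0 without the muscle-bearing arrays (482 unadjusted) and 44 without the epididymal arrays that stood apart. In liver 9 became 5 with the replicate block and 1 without the muscle-bearing arrays. Over both depots 41 became 17 with fat alone and 10 without the muscle-bearing arrays, and the change by depot went to 11 against 0 without the epididymal arrays that stood apart. Between depots, 249 genes in Mgl2-DTR mice became 161 with the stricter filter, 89 with fat alone, 50 without the muscle-bearing arrays and 127 with the adipocyte covariate, and 190 in wild-type mice became 125, 90 and 33 under the first 3. Fat against liver went to 5504 of 7241 genes tested with the stricter filter, against 8689 of 12710. That filter tests fewer genes, so its lower counts for fat against liver and between depots are not lower shares. With 1 array left out the counts ran at 0 to 776 in epididymal fat, 5 to 38 in inguinal fat, 3 to 14 in liver, 19 to 732 over both depots, 0 to 147 for the change by depot, 72 to 557 and 73 to 1450 between depots of Mgl2-DTR and wild-type mice, and 7829 to 8811 for fat against liver. The cause was not tested, but settings that drop arrays leave fewer samples. With the replicate block Agt stood at -1.99 between depots in each genotype (adjusted p = 0.00987 in Mgl2-DTR and 0.00969 in wild-type mice). Whether numbers pair samples is not settled. The difference between replicates correlated between genotypes at 0.053 in epididymal fat, -0.12 in inguinal fat and 0.088 in liver. Between tissues of 1 genotype it correlated at -0.011 to 0.12 in Mgl2-DTR and 0.033 to 0.097 in wild-type mice. With genotype and number as a random block the Agt depot calls held. The adipocyte covariate was not run for liver, nor the next brightest probe for counts of all genes. Differences under 1 log2 unit are near the limit of 2 arrays a group, and dim genes such as Apln near the floor of the array.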
